A study of Homo sapiens with 12 samples.

Results

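Choline salicylate (CS), a salt of salicylate, was given alone to JEKO-1 cells, and the RNA of these cells was compared with that of cells given DMSO. The comparison used 6 of the 12 libraries of the series, the 3 labelled CS and the 3 labelled DMSO, chosen by their labels and by no measured value. JEKO-1 is an established human mantle cell lymphoma line, a cancer of mature B cells. All groups were the same line in RPMI-1640 medium with serum and were taken at 48 h. The other 6 libraries, 3 with KPT-330 (selinexor, a drug that blocks nuclear export through XPO1) and 3 with KPT-330 and CS, served as a second fit and as a background in which CS was added to another drug. CS had been dissolved in PBS and KPT-330 in DMSO, and whether the CS cultures also held DMSO is not stated in any source read here. Salicylate, choline and the absence of the solvent cannot be told apart. A range of 1 to 3 mM is given for CS, without the concentration of these libraries. The labels do not tell whether replicates are separate cultures, and a p-value here therefore reflects only how far these libraries lie apart, which can be a technical matter.

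Salicylate is the active product of aspirin. It is known as a weak inhibitor of prostaglandin synthesis, and at high concentrations as an inhibitor of NF-kappaB signalling, a direct activator of the energy sensor AMPK and an uncoupler of mitochondria. Cells answer mitochondrial and amino acid stress through ATF4, a transcription factor whose own message is translated when the initiation factor eIF2 is phosphorylated. The groups of genes described below were taken from these pathways, from the biology of B cells and from the study's stated interest in S phase and DNA repair.

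Total counts ran from 44144749 to 50939785 in DMSO and from 44871267 to 59490178 in CS, so 3 counts, the limit that a count of 0 allows, correspond to between 0.0504 and 0.0680 CPM (reads of a gene relative to all reads of its library, on a fixed scale). Markers of the line were present, with MS4A1 (CD20) at 959 to 1201 CPM in DMSO and 1184 to 1352 in CS. None of the 9 JEKO-1 and mantle cell markers was called in either fit (edgeR; 3 at an unadjusted p below 0.05, 0 by DESeq2, 5 higher and 1 lower with the GC correction). Some markers of other cell types had no read in any of the 6 libraries (CDH5, CDH1, HBB, S100A8, COL3A1 and CD8B), and others were present. The 14 listed T cell markers, of which CD247 and LCK were tested, summed to 41.4 to 60.7 CPM in DMSO and 41.7 to 51.8 in CS, and CD3E had 3 to 20 reads. The 8 endothelial markers, of which PECAM1 was tested, summed to 19.5 to 20.2 and 25.3 to 26.6 CPM, and PECAM1 was higher with 12 libraries (0.36 ± 0.06). The 14 myeloid markers, of which 6 were tested, summed to 10.3 to 12.04 and 6.79 to 7.21 CPM, and LYZ and AIF1 were lower with 12 libraries. The epithelial, fibroblast, erythroid and NK cell lists each summed to under 2 CPM in every library. The part of these markers in the results below was not tested.

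The libraries of a group were far apart. Of the variance of log2 CPM, 40.7% lay along a first principal component that ran within both groups, from -25.9 in DMSO replicate 1 to 39.1 in DMSO replicate 3 and from -30.6 in CS replicate 3 to 14.6 in CS replicate 1. It followed how counts depended on GC content, with slopes of 0.196, -0.0253 and -0.216 (log2 CPM per 10 GC points) in DMSO replicates 1, 2 and 3 and -0.126, 0.00300 and 0.168 in CS replicates 1, 2 and 3. The second component held 28.7% and separated the groups without overlap, at 11.1 to 27.3 in DMSO and -26.0 to -11.8 in CS. The biological coefficient of variation was 13.7% in the 6 libraries (15.8% within DMSO and 11.6% within CS). It was 6.67% once GC trends between libraries of a group were removed, and within KPT-330 it was 2.69%. Counts of called genes are therefore given from 2 fits, and values of single genes are from the fit of the 6 libraries alone unless the fit of all 12 is named, in which the tighter KPT-330 libraries lower the shared estimate of spread.

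**Figure D1:**
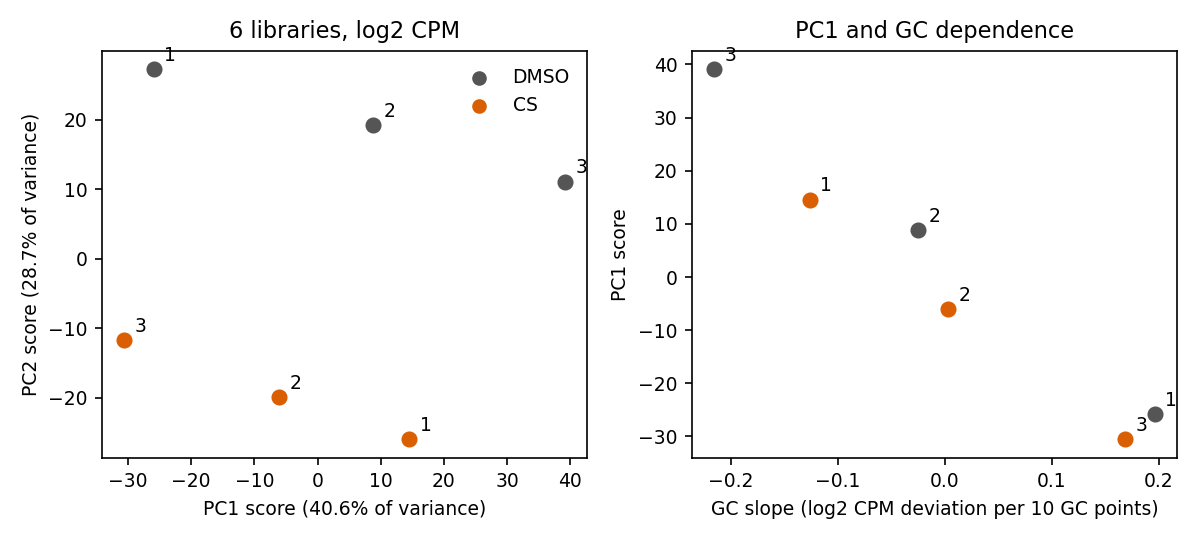
Scores of the 6 libraries (numbers are replicates, grey DMSO, orange CS) on the first 2 principal components of log2 CPM (left), and the first component against the GC slope of each library (right). The groups separate on the second component, and the first component runs against the GC slope in both groups.

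With 6 libraries, 159 of 17722 tested genes rose and 90 fell at an adjusted p of 0.05 or less (edgeR quasi-likelihood test with Benjamini-Hochberg adjustment), 0.897% and 0.508% of the genes tested. With 12 libraries 731 of 19460 were higher and 998 lower, 3.76% and 5.13%. Scaling by library size alone, which moved the median of all genes by 0.03, gave 260 and 106 with 6 libraries and 1365 and 714 with 12, and a GC correction over all libraries gave 1333 and 2248 with 6. All 159 and all 90 were called in the same direction in the fit of 12. That fit holds the same CS and DMSO libraries, with a lower shared coefficient of variation (11.1% against 13.7%). Calls kept in it are therefore no independent check. After a GC correction within groups 156 and 88 kept their call. That correction takes out GC trends between libraries of a group and leaves the mean trend of each group. It lowers the spread and hardly moves the difference between groups, so kept calls do not test a GC difference between them. It is meant wherever no other GC correction is named. With it 1727 of the 17722 tested genes were higher and 1704 lower. Changes were small: 29 of the 159 and 24 of the 90 reached 2-fold, and 3 and 3 reached 4-fold, the study's own limit. In 2333 genes (13.2%) all CS libraries lay above all DMSO libraries, and in 1960 (11.1%) below. Single libraries decided the counts of the smaller fit. Without DMSO replicate 2 there were 1 higher and 5 lower genes, without CS replicate 2 there were 1 and 3, without CS replicate 1 12 and 11, without CS replicate 3 18 and 12, without DMSO replicate 3 111 and 52, and without DMSO replicate 1 189 and 180. "Rose" and "fell" below refer to genes called with 6 libraries. The shares of all genes given above are the background of every count of a list below. Counts from the fit of 12 rested on single libraries too, which is given here or below for groups with 5 or more such calls. With 1 library left out, the 29 lower replication-dependent histones became 22 to 26. The 10 lower genes of the unfolded protein response became 7 to 11, and the 12 higher ATF4 genes 9 to 12. The 8 higher MHC class II genes became 6 to 10, and the 9 lower mitochondrial transfer RNAs 6 to 10. Smaller counts moved as well. Where a group of genes had no such call, its counts at an unadjusted p below 0.05 and by DESeq2 are given, which over all genes were 3048 (17.2%) and 408 (2.44% of those with an adjusted p).

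A rule that asked for at least 5 CPM and no overlap between the groups took the 12 highest and 12 lowest called genes, 5 of them mitochondrial transfer RNAs. CD22, an inhibitory coreceptor of the B cell receptor, had 14.4, 12.8 and 12.5 CPM in DMSO and 27.7, 31.4 and 31.6 in CS. It rose by 1.19 ± 0.10 (log2 fold change ± SE, adjusted p = 0.00459 by edgeR; 1.16 ± 0.07 with 12 libraries), and the 2 groups did not come near each other. FAIM3, the Fc receptor for IgM, was at 20.1, 20.0 and 20.3 CPM in DMSO and 37.7, 40.2 and 39.4 in CS. It rose by 0.96 ± 0.07 (adjusted p = 0.00324 by edgeR), with nearly the same level in every library of a group. ARRDC3, an arrestin-domain protein, rose from 30.0 ± 3.88 to 65.4 ± 4.57 CPM (SD, n = 3), and the activating transcription factor ATF5 from 30.6 ± 4.53 to 65.1 ± 5.03. The G protein subunit GNG7 (1.23 ± 0.15), the actin-associated SYNPO (1.19 ± 0.16), BASP1 (1.10 ± 0.15), the zinc finger gene ZNF441 (0.94 ± 0.10) and the pseudogenes GVINP1 (1.21 ± 0.13) and SNX29P2 (1.40 ± 0.20) completed the nuclear genes on the high side. SNX29P2 has a pair of overlapping entries in the table, CD22 overlaps the antisense gene U62631.5, and ATF5 overlaps IL4I1 and NUP62, so their reads cannot be fully told apart.

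On the low side, DUSP5, a phosphatase that turns off the kinase ERK in the nucleus, had 12.96, 13.7 and 12.9 CPM in DMSO and 4.81, 4.45 and 3.999 in CS. It fell by 1.58 ± 0.11 on the log2 scale, 2.98-fold (adjusted p = 0.00296 by edgeR), and the groups were wide apart. FGR, a SRC-family kinase, fell from 6.72 ± 1.11 to 2.88 ± 0.65 CPM, and the Notch ligand gene JAG1 from 10.6 ± 0.91 to 5.44 ± 0.47. MAP1A (-0.84 ± 0.09), a microtubule-associated protein, SORT1 (-0.84 ± 0.11), the sorting receptor sortilin, the interferon-induced IFI44L (-0.76 ± 0.13) and the lipid transporter gene ABCA9 (-0.63 ± 0.11) also fell. Of the 24 genes the rule took, MT-TF and BBOX1 kept their call whichever library was left out, and DUSP5 lost it without CS replicate 2. CD22, FAIM3, ARRDC3, ATF5, CD36, MT-TR, MT-TI and MT-TD lost it without DMSO replicate 2 or CS replicate 2, and the others without 3 to 5 of the libraries, those 2 included. No log2 fold change of these genes turned sign when a library was left out.

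Among these 24 genes, the highest value and the 2 lowest were those of transfer RNAs (tRNAs) of mitochondria. The mitochondrial genome is read as long transcripts in which tRNAs sit between the messages and ribosomal RNAs and are cut out by dedicated enzymes, so neighbouring RNAs come from the same precursor. Of 22 tRNA genes, 2 rose and 5 fell with 6 libraries, and 3 were higher and 9 lower with 12. The 2 that rose and the 2 with the lowest values are shown for their length and place, from hg38 with GENCODE 44 positions. Capitals mark the known anticodon of each tRNA, which a script placed at its occurrence after a T in a loop closed by 4 or 5 base pairs.
MT-TF (phenylalanine, chrM:577-647, plus strand): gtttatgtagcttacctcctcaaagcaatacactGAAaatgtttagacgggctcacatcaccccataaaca
MT-TD (aspartate, chrM:7518-7585, plus strand): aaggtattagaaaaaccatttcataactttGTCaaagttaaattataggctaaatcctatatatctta
MT-TR (arginine, chrM:10405-10469, plus strand): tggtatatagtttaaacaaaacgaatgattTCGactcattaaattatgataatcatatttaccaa
MT-TI (isoleucine, chrM:4263-4331, plus strand): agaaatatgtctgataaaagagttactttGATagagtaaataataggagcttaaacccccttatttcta

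MT-TF, which precedes the small ribosomal RNA gene, had 14.6, 14.4 and 16.75 CPM in DMSO and 2.93, 2.06 and 2.44 in CS. It fell by 2.62 ± 0.15 on the log2 scale, 6.16-fold (adjusted p = 0.00183 by edgeR), the lowest value of the 24. MT-TD, which precedes MT-CO2, had 9.95, 11.0 and 11.7 CPM in DMSO and 3.08, 2.18 and 2.04 in CS, and fell by 2.17 ± 0.18 (adjusted p = 0.00459). MT-TR, between MT-ND3 and MT-ND4L, went the other way, from 1.38, 1.77 and 2.11 CPM to 7.10, 5.82 and 6.06. It rose by 1.86 ± 0.18, 3.62-fold (adjusted p = 0.00835 by edgeR). MT-TI, which follows MT-ND1, rose from 32.8 ± 3.67 to 72.7 ± 7.13 CPM, and shares its last bases with MT-TQ of the other strand. MT-TT (-1.05 ± 0.13), MT-TL1 (-0.55 ± 0.07) and MT-TS2 (-1.73 ± 0.27, 135 reads in DMSO and 45 in CS) fell as well. Libraries of the 2 groups did not overlap in any of these 7 tRNAs, which was so for all 159 and all 90 genes called with 6 libraries.

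Called only with 12 libraries were MT-TK (0.78 ± 0.15 higher in that fit), MT-TL2 (-1.97 ± 0.41) and MT-TH (-0.97 ± 0.25), among others. MT-TM, with the highest CPM of the tRNAs called in neither fit, was at 310 ± 26.2 in DMSO and 362 ± 26.6 in CS. No message or ribosomal RNA from the same genome was called with 6 libraries. Of 13 messages none was called with 6 libraries (edgeR; 5 at an unadjusted p below 0.05, 1 by DESeq2, 8 higher with the GC correction). With 12 libraries 2 were higher, MT-CO2 (7769 ± 652 to 10355 ± 610 CPM) and MT-ND2 (0.31 ± 0.08 in that fit), and 12 of 13 log2 fold changes were positive with a median of 0.16 against 0.02 over all genes. MT-RNR1 (-0.12 ± 0.08) and MT-RNR2 (0.01 ± 0.09) were called in neither fit, and with KPT-330 present CS was followed by higher values of both (0.62 ± 0.05 and 0.85 ± 0.05), a called difference. Mitochondrial RNA as a whole took 6.45% to 7.40% of counts in DMSO and 7.42% to 8.28% in CS. The libraries were poly(A)-selected and mature tRNAs carry no poly(A) tail, so reads over a tRNA gene in such libraries need not come from mature tRNA, and their source was not tested. With 1 library left out, 0 to 2 tRNAs were higher and 1 to 5 lower: both higher calls were lost without DMSO replicate 2 or CS replicate 2, and the lower calls went to 1 without either of these, 2 without CS replicate 1 or CS replicate 3 and 4 without DMSO replicate 3.

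**Figure D2:**
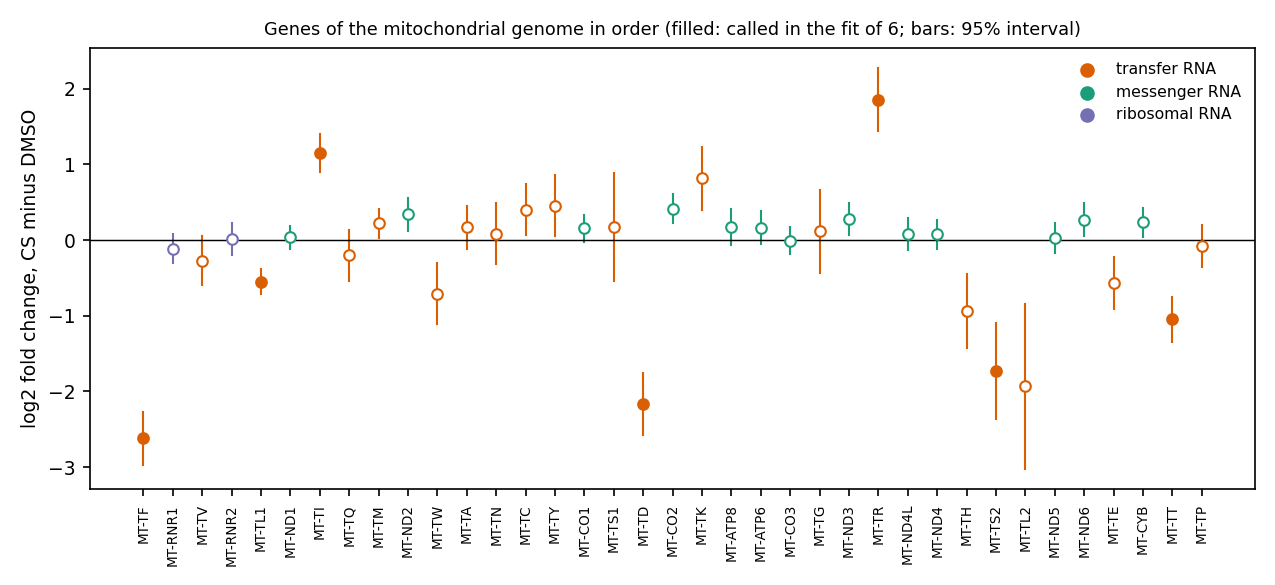
Log2 fold change (CS minus DMSO, fit of 6 libraries) of the genes of the mitochondrial genome in their order along it, with 95% intervals; orange tRNAs, green messages, purple ribosomal RNAs, filled where called. Filled points are all tRNAs, 2 above and 5 below 0, while messages and ribosomal RNAs lie close to 0.

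Nuclear genes that act on mitochondrial RNA or in the respiratory chain gave no call with 6 libraries. Of 25 genes of mitochondrial RNA processing and expression none was called with 6 libraries (8 at an unadjusted p below 0.05, 1 by DESeq2, 13 lower with the GC correction) and 8 were lower with 12, with a median of -0.15. GRSF1 (-0.41 ± 0.08), PNPT1 (-0.36 ± 0.07) and LRPPRC (-0.36 ± 0.08) had the lowest values of these 8. Of 45 nuclear-encoded respiratory chain genes none was called with 6 (14 at an unadjusted p below 0.05, 0 by DESeq2, 15 lower with the GC correction) and 11 were lower with 12, with a median of -0.12, and 43 of 45 values were negative. Both medians lie below the 0.02 of all genes and amount to changes under 1.5-fold. The count of 8 was 13 without DMSO replicate 1, 4 without DMSO replicate 3 or CS replicate 2 and 2 without CS replicate 3, and the count of 11 was 19 without DMSO replicate 1 and 5 without CS replicate 3.

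Of the tested histone genes of S phase, 17 of 42 fell and none rose. Replication-dependent histones are made in S phase from messages that end in a stem-loop instead of a poly(A) tail, and a small share of these messages is polyadenylated. Of 65 listed genes 42 were tested with 6 libraries, and the other 23 had too few reads. All 42 log2 fold changes were negative, with a median of -0.87, and of all 17722 genes 0.508% fell. With 12 libraries 29 of 48 were lower and none was higher, and with the GC correction 28 of 42 were lower. In 32 of the 42 all CS libraries lay below all DMSO libraries, against 11.1% of all genes. Together the listed genes held 533 to 656 CPM in DMSO and 298 to 360.5 in CS. With fewer libraries the 17 became 1 (without CS replicate 2), 2 (without DMSO replicate 2), 5 (without CS replicate 1), 6 (without CS replicate 3) and 11 (without DMSO replicate 3), and stayed 17 without DMSO replicate 1. The libraries were poly(A)-selected, so these counts may come largely from the polyadenylated share. In such bulk RNA, fewer cells in S phase, less histone RNA per cell and a smaller polyadenylated share cannot be told apart.

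The stem-loop, 16 bases long and read by a script from GENCODE 44 transcripts, was found in 39 of the 42 genes, and 4 of them are shown because their genes changed most among those called. Capitals mark the stem-loop, and nothing else is printed.
HIST1H2BC (gene at chr6:26114873-26123926, minus strand): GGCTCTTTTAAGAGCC
HIST1H1D (gene at chr6:26234268-26234933, minus strand): GGCTCTTTTCAGAGCC
HIST1H2BF (gene at chr6:26199559-26199939, plus strand): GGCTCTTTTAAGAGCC
HIST1H2AC (gene at chr6:26124145-26139116, plus strand): GGCTCTTTTCAGAGCC
In transcripts where it was found, the annotated end lies 5 bases past the stem-loop, or 6 in HIST1H2AC. Any transcript of these genes without the stem-loop was not measured.

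HIST1H2AC, an H2A gene, had the most reads of these 4. Its levels were 90.3, 91.8 and 100.2 CPM in DMSO and 44.9, 44.02 and 41.5 in CS, a fall of 1.11 ± 0.07 on the log2 scale, 2.17-fold (adjusted p = 0.00183 by edgeR), that was called whichever library was left out. HIST1H2BC, an H2B gene, had 12.6, 11.4 and 11.3 CPM in DMSO and 3.64, 3.98 and 4.36 in CS, and fell by 1.56 ± 0.12 (adjusted p = 0.00350), a call lost only without CS replicate 2; it overlaps HFE. The linker histone HIST1H1D fell from 9.51 ± 1.09 to 3.89 ± 0.41 CPM and HIST1H2BF from 2.88 ± 0.28 to 1.27 ± 0.30. HIST1H2AD (-1.58 ± 0.31), HIST1H2BM (-1.54 ± 0.32) and HIST1H3C (-1.33 ± 0.35) were lower with 12 libraries alone. HIST1H1C had the highest level of the uncalled, at 148, 98.05 and 72.2 CPM in DMSO and 51.2, 65.1 and 86.5 in CS, values that overlap and spread within each group. Many histone genes are near-identical copies, and how the authors' counting split reads between them is not given.

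**Figure D3:**
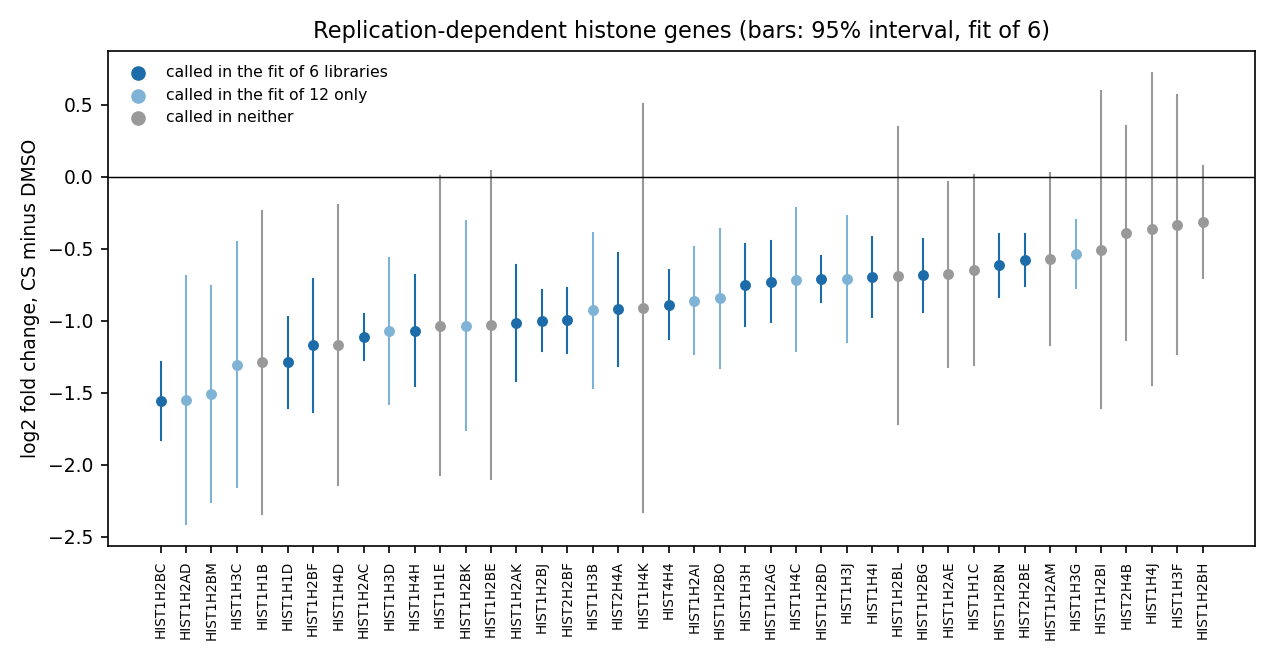
Log2 fold change (CS minus DMSO) with 95% intervals of the 42 tested replication-dependent histone genes, in order of size, coloured by call. All 42 points lie below 0, and 17 of them were called with 6 libraries.

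Other genes of the cell cycle changed less. Of all genes 0.508% fell with 6 libraries and 5.13% were lower with 12. With the GC correction 13 of 49 DNA replication genes were lower and 2 higher. Of 20 genes that process histone messages or supply histones, 6 were lower and 1 higher with it. Of all 17722 tested genes 1704 were lower and 1727 higher. Among 11 replication-independent histones, which carry poly(A) tails, only the linker histone H1F0 fell (76.9, 72.1 and 73.1 CPM in DMSO, 52.7, 52.4 and 53.9 in CS; -0.48 ± 0.06, adjusted p = 0.0183 by edgeR), and H2AFJ was among the 4 lower with 12 libraries. None of 20 genes that process histone messages or supply histones was called with 6 libraries (5 at an unadjusted p below 0.05, 1 by DESeq2), and 5, among them ASF1A and HAT1, were lower with 12. Of 49 DNA replication genes CDC25A, a phosphatase that opens S phase, fell from 169 ± 7.36 to 135 ± 1.75 CPM (adjusted p = 0.0452 by edgeR), and 7 were lower with 12, RRM2 (-0.30 ± 0.07) and ORC1 included. The medians were -0.04 for replication and -0.10 for 39 G2/M genes, of which none was called with 6 (9 at an unadjusted p below 0.05, 1 by DESeq2, 18 lower and 3 higher with the GC correction) and 4 were lower with 12, BUB1 (-0.38 ± 0.06) and AURKA (-0.29 ± 0.05) among them. Cyclin D1 (CCND1), the driver of mantle cell lymphoma, spread from 285 to 561 CPM in DMSO and from 337 to 547 in CS, so its difference (0.08 ± 0.27) was far below the spread between libraries. CCNE2 was at 10.0 ± 1.55 and 10.1 ± 0.93 CPM. The inhibitor CDKN1A had 7.51, 6.20 and 5.22 CPM in DMSO and 9.07, 10.4 and 10.5 in CS, values that do not overlap; it was not called with 6 libraries (adjusted p = 0.0862) and was higher with 12 (0.63 ± 0.14, adjusted p = 0.0129 by edgeR). H1F0 lost its call without DMSO replicate 2 or any single CS library, and CDC25A also without DMSO replicate 3. Of the counts with 12 libraries, the 5 became 1 without DMSO replicate 2, DMSO replicate 3, CS replicate 2 or CS replicate 3, and the 7 became 13 without DMSO replicate 1, 3 without either other DMSO library, 4 without CS replicate 1 and 1 without either other CS library. The 4 of the G2/M genes became 18 without DMSO replicate 1.

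DNA repair and checkpoint genes gave no call with 6 libraries. As 0.897% of all genes rose and 0.508% fell, lists of this size would hold few or no calls at those shares. Over all 17722 tested genes 17.2% had an unadjusted p below 0.05 (edgeR). With the GC correction 1727 of them were higher and 1704 lower. Of 37 genes of homologous recombination and the Fanconi anaemia pathway, none was called with 6 libraries, and with 12 XRCC2 was higher and RAD51C lower; 9 had an unadjusted p below 0.05, 0 were called by DESeq2, and 10 were higher and 3 lower with the GC correction. Their 95% intervals lay within 1.5-fold for 36 and within 2-fold for all 37. Of 18 checkpoint genes none was called in either fit (1 at an unadjusted p below 0.05, 0 by DESeq2), with 17 intervals within 1.5-fold. BRCA1 was at 93.4 ± 8.75 and 110 ± 5.41 CPM (0.24 ± 0.08) and CHEK1 at 112 ± 7.87 and 105 ± 3.96 (-0.09 ± 0.07). XPO1 (0.10 ± 0.08), SOX11 (0.16 ± 0.07) and MYC (0.20 ± 0.09) were not called in either fit.

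The ATF4 group was higher in part. Of 36 tested genes of ATF4 and the amino acid response, 7 rose and none fell with 6 libraries, and 12 of 37 were higher and 2 lower with 12; 30 of 36 values were positive, with a median of 0.37 against 0.02 over all genes. With the GC correction 19 were higher and 3 lower, where 1727 and 1704 of all 17722 tested genes were. ASNS, which makes asparagine, had 48.9, 53.4 and 58.5 CPM in DMSO and 103, 97.8 and 91.2 in CS. It rose by 0.86 ± 0.08, 1.82-fold (adjusted p = 0.00835 by edgeR). ATF5, a target of ATF4, was among the highest genes of the comparison (above). CHAC1, which degrades glutathione, had 30 reads in DMSO and 205 in CS over 3 libraries each, with 0.315, 0.249 and 0.0687 CPM against 0.998, 1.13 and 1.71. It rose by 2.57 ± 0.43 (adjusted p = 0.0394), a value of low precision. The hormone gene STC2 rose from 1.99 ± 0.32 to 4.21 ± 0.63 CPM. ATF4 itself was nearly constant within each group, at 168, 171 and 171 CPM in DMSO and 218, 215 and 215 in CS. It rose by 0.34 ± 0.05, and this call was lost with the GC correction. DDIT3 (CHOP) rose by 0.42 ± 0.07, with MARS and MBD6 overlapping it, and the serine synthesis enzyme PSAT1 by 0.48 ± 0.07. SLC6A9, ATF3 and PHGDH were higher with 12 libraries alone (2.49 ± 0.62, 0.86 ± 0.22 and 0.69 ± 0.12), while SHMT2 spread from 336 to 599 CPM within DMSO and was called in neither. The count of 7 was 0 without DMSO replicate 2 or CS replicate 2, 1 without CS replicate 1, 2 without CS replicate 3, 5 without DMSO replicate 3 and 9 without DMSO replicate 1.

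ULBP1, a ligand of the killer cell receptor NKG2D, and ASS1, which makes argininosuccinate, stand outside the naming rule for their low level and are named after their values were seen. ULBP1 had 0.531, 0.566 and 0.550 CPM in DMSO and 2.79, 2.57 and 2.66 in CS (2.28 ± 0.15, adjusted p = 0.00278 by edgeR), and ASS1 rose by 1.85 ± 0.21. Calls of genes named after their values were seen were not recomputed with a library left out. Of 20 cytosolic aminoacyl-tRNA synthetases, CARS rose from 67.0 ± 6.24 to 94.9 ± 5.24 CPM and AARS from 264 ± 17.6 to 368 ± 16.8, while the median of the 20 was -0.00. With 12 libraries 3 synthetases were higher (YARS the third) and 5 lower, RARS (-0.30 ± 0.09) and FARSB (-0.28 ± 0.07) among them. The 2 synthetase calls became 0 without DMSO replicate 2 or any single CS library, and 1 without DMSO replicate 3. The 5 lower with 12 became 0 without DMSO replicate 2, CS replicate 2 or CS replicate 3 and 3 without DMSO replicate 3 or CS replicate 1.

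**Figure D4:**
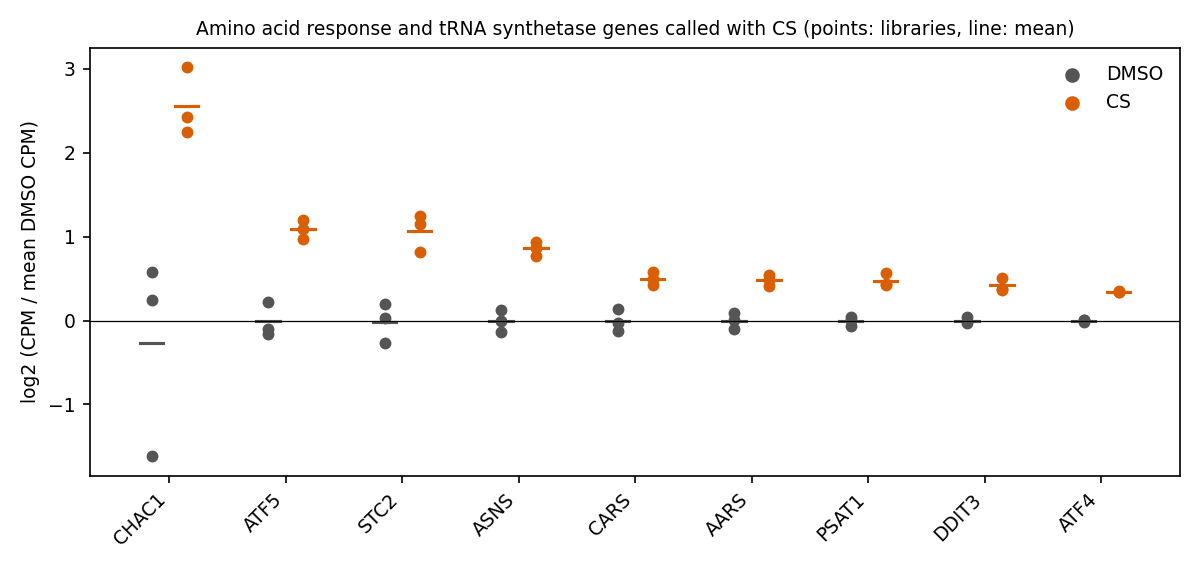
Level of each library relative to the mean of DMSO (log2 of CPM over mean DMSO CPM) for the genes of the ATF4 and tRNA synthetase lists that were called with 6 libraries; points are libraries and lines their means on the log scale. In every gene the 3 CS libraries lie above the 3 DMSO libraries, as in all 159 genes that rose, and CHAC1 has the widest spread.

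ATF4 binds with CEBP proteins at composite elements, of which the form TGATGNAA (either strand, N any base) was searched in RefSeq promoter windows of GRCh38.p14 (250 bases before to 50 after the start). It was found in 5 of 30 promoters of the list (16.7%), against 192 of 9827 promoters of tested genes (1.95%), and the 5 were CEBPG, CHAC1, SLC1A4, SLC1A5 and SLC7A1. Among the 7 genes that rose only CHAC1 held it in the window searched. Its 250 upstream bases are shown with the match, which reads on the minus strand and begins at position -209 from the start, in capitals.
CHAC1 (chr15:40953221-40953470, plus strand): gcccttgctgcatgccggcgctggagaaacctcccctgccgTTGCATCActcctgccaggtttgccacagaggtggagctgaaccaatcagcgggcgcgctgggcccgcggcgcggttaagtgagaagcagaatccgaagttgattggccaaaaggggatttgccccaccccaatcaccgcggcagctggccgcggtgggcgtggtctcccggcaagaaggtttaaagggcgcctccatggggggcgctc
A match is a description of letters, and factor binding was not measured. Elements outside the window, near another start or of another form were not searched. A gene without a match can therefore still have one.

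Of 30 genes of the unfolded protein response 2 fell, both chaperones of the endoplasmic reticulum, and 8 of the 30 values were positive. HSPA5 (BiP), the chief chaperone of that compartment, had 397, 418 and 457 CPM in DMSO and 309, 302 and 287 in CS, and fell by 0.50 ± 0.07 (adjusted p = 0.0245 by edgeR). HSP90B1 fell from 731 ± 59.4 to 502 ± 23.8 CPM. With 12 libraries 10 of the 30 were lower, MANF (-0.43 ± 0.07), PDIA3 (-0.41 ± 0.07) and HYOU1 (-0.38 ± 0.10) among them, and 1 higher, and the median was -0.13; with the GC correction 12 were lower and 4 higher. Of 25 heat shock and mitochondrial chaperone genes the chaperonin HSPD1 fell (-0.41 ± 0.07), and 10, among them HSPE1, HSPA8 and HSP90AB1, were lower with 12. All 33 proteasome subunit values were negative (median -0.22). PSMD2 was called with 6 libraries (423 ± 2.55 to 345 ± 2.61 CPM), and 18 were lower with 12. Of 35 ribosome biogenesis genes NOP56 fell (-0.30 ± 0.05), which also hosts small nucleolar RNAs, and 13 were lower with 12 (median -0.18). Of all genes 0.508% fell with 6 libraries and 5.13% were lower with 12, and the median was 0.02 with 6. With the GC correction 13 of the 25 chaperone genes were lower and 1 higher. It gave 22 lower of the 33 proteasome subunits and 18 lower of the 35 ribosome biogenesis genes, and none higher. Of all 17722 tested genes 1704 were lower and 1727 higher with it. Without DMSO replicate 2 or any single CS library the calls of HSPA5 and HSP90B1 were lost, and those of HSPD1, PSMD2 and NOP56 also without DMSO replicate 3. With 12 libraries the 10 chaperone genes became 5 without CS replicate 2 and 1 without CS replicate 3. The 18 proteasome subunits became 8 without DMSO replicate 2, 9 without CS replicate 2 and 6 without CS replicate 3. The 13 ribosome biogenesis genes became 7 without DMSO replicate 2, DMSO replicate 3 or CS replicate 2 and 4 without CS replicate 3.

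Of the 13 genes of MHC class II, which present peptides to helper T cells, 5 rose and none fell. All 13 values were positive with a median of 0.42; of all genes 0.897% rose. In this class 8 were higher with 12 libraries and 8 with the GC correction. All CS libraries lay above all DMSO libraries in 10 of 13, against 13.2% of all genes. The 5 that rose are among the 10, as no gene that rose had overlapping groups. The genes that rose encode mainly the editing and modulating molecules of the pathway. HLA-DMA, a chain of the peptide editor HLA-DM, had 68.25, 68.7 and 66.6 CPM in DMSO and 95.03, 95.1 and 92.6 in CS, and rose by 0.47 ± 0.05 (adjusted p = 0.0139 by edgeR). HLA-DMB rose by 0.42 ± 0.06, and both overlap the gene XXbac-BPG181M17.5, as HLA-DMA does BRD2. HLA-DOA (32.8 ± 1.65 to 46.7 ± 1.09 CPM) and HLA-DOB (9.38, 10.7 and 9.92 CPM in DMSO, 15.1, 16.99 and 15.8 in CS), which form the DM inhibitor HLA-DO, rose, as did the presenting chain HLA-DQA1 (46.3 ± 1.58 to 63.2 ± 1.21). CIITA, the master activator of the class, was at 141, 124 and 113 CPM in DMSO and 142, 164 and 175 in CS. It was not called with 6 libraries (0.35 ± 0.11, adjusted p = 0.154) and was higher with 12 (0.32 ± 0.09, adjusted p = 0.0357 by edgeR), like HLA-DQB1 and HLA-DPA1. HLA-DRA (0.18 ± 0.06) and the invariant chain CD74 (0.20 ± 0.19) were called in neither fit. RFX5, a DNA-binding factor of class II promoters that stood in no list and is named after its values were seen, rose from 167 ± 1.98 to 232 ± 5.29 CPM. The 5 calls became 0 without DMSO replicate 2 or any single CS library, 4 without DMSO replicate 3 and 6 without DMSO replicate 1. HLA genes are polymorphic and alike, and how well reads of this line matched the reference was not tested.

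Class II promoters carry a Y box, bound by NF-Y, whose core ATTGG (either strand; chosen after these values were seen) was in 10 of 11 promoters of the class in the table (90.9%) and in 36.6% of all 9827. The upstream 250 bases of HLA-DOA and HLA-DMA are shown because both rose, with every match in capitals. They begin at position -67 from the start in HLA-DOA and at -79 and -49 in HLA-DMA.
HLA-DOA (chr6:33009592-33009841, minus strand): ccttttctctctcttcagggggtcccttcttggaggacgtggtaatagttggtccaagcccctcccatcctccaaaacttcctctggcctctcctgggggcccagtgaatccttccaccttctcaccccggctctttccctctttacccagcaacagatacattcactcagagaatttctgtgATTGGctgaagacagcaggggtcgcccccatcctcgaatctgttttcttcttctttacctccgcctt
HLA-DMA (chr6:32953098-32953347, minus strand): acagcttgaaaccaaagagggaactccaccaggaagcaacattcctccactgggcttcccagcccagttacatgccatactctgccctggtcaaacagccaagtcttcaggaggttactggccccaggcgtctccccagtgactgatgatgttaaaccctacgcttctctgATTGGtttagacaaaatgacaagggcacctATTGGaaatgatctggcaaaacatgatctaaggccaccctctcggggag

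The class II genes answered CS differently when KPT-330 was present. In the 6 libraries with KPT-330, which share no library with the comparison above, CS was followed by no higher and 10 lower class II genes of 13 (24.2% and 22.6% of all 18906 genes tested there were higher and lower), with a median of -0.24. The difference between the 2 effects was called for all 13 (14.7% of 19460 genes had such a call). HLA-DQB1 was 0.76 ± 0.19 with CS alone and -0.49 ± 0.09 with CS added to KPT-330, and HLA-DRB1 0.26 ± 0.14 and -0.61 ± 0.06. HLA-DOA was the only member with a positive value in both (0.51 ± 0.07 and 0.07 ± 0.04).

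**Figure D5:**
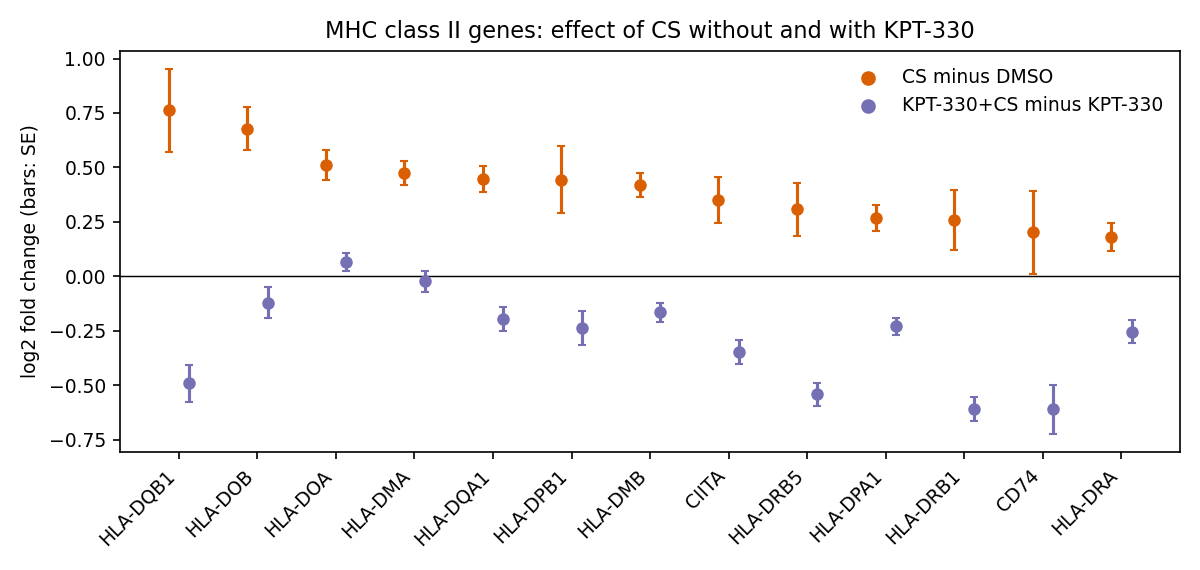
Log2 fold change with SE of the 13 MHC class II genes for CS alone (orange, CS minus DMSO) and for CS added to KPT-330 (purple), each from a fit of 6 libraries. Orange points are all above 0, purple points below 0 except HLA-DOA.

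Other B cell genes moved both ways. Of 38 receptor and surface genes CD22 and BANK1, an adaptor of B cell signalling (72.1 ± 9.23 to 110 ± 8.46 CPM), rose with 6 libraries, and 8 were higher and 5 lower with 12. FCER2 (CD23) and TNFRSF13C, the BAFF receptor, were higher with 12 (1.28 ± 0.29 and 0.52 ± 0.11) and FCRL1 lower (-0.58 ± 0.10). Of 23 transcription factors BACH2 rose from 104 ± 6.79 to 134 ± 4.75 CPM and ID2 fell from 81.4 ± 2.93 to 58.0 ± 2.06, and with 12 libraries 4 were higher and 3 lower, among them POU2F2 (0.35 ± 0.08) and PRDM1, the plasma cell regulator (-0.71 ± 0.15). None of 13 plasma cell and secretory genes was called with 6 (4 at an unadjusted p below 0.05, 3 by DESeq2). None of 16 MHC class I genes was called with 6 (3 at an unadjusted p below 0.05, 0 by DESeq2, 8 higher and 1 lower with the GC correction), and PSMB8 was higher with 12. Among 40 interferon-stimulated genes SAMD9 rose (9.51 ± 1.10 to 15.6 ± 0.98 CPM) and IFI44L fell, and 4 were higher and 7 lower with 12, IFIT2, IFI44 and IFI27 among the lower. Calls of BANK1, ID2 and SAMD9 were lost without DMSO replicate 2 or any single CS library, that of IFI44L also without DMSO replicate 3, and that of BACH2 without DMSO replicate 1, DMSO replicate 2 or any single CS library. With 12 libraries the 8 higher surface genes became 4 without DMSO replicate 2 and 5 without CS replicate 2 or CS replicate 3, the 5 lower became 3 without any single CS library, and the 7 lower interferon-stimulated genes became 4 without DMSO replicate 2 or CS replicate 2.

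Of 39 tested genes that bring in and burn fatty acids 2 fell and 1 rose. BBOX1, the last enzyme of carnitine synthesis, had 67.0, 71.5 and 80.2 CPM in DMSO and 29.4, 28.2 and 28.2 in CS. It fell by 1.35 ± 0.08, 2.55-fold (adjusted p = 0.00183 by edgeR), and was called whichever library was left out. CD36, a fatty acid receptor, had 30.7, 33.2 and 36.4 CPM in DMSO and 15.2, 15.2 and 13.9 in CS, and fell by 1.18 ± 0.09, 2.27-fold (adjusted p = 0.00450). CPT1A, which moves fatty acids into mitochondria, rose from 52.0 ± 1.51 to 67.4 ± 2.13 CPM, and 2 members were higher and 6 lower with 12. The 6 became 11 without DMSO replicate 1, 2 without DMSO replicate 2 or CS replicate 2 and 3 without either other CS library. SLC27A2 was the second of the higher (0.62 ± 0.12) and FABP5 one of the lower (-0.29 ± 0.07). When CS was added to KPT-330, BBOX1 was at -3.65 ± 0.07 and CD36 at -2.88 ± 0.15, and the difference from CS alone was called for both (adjusted p = 1.27e-07 and 4.16e-05 by edgeR), while CPT1A was lower there (-0.29 ± 0.04). CD36 lost its call without DMSO replicate 2 or CS replicate 2, and CPT1A without DMSO replicate 2, DMSO replicate 3 or any single CS library.

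In glycolysis the enzymes PGK1 (865 ± 28.1 to 678 ± 19.7 CPM) and PGAM1 (121 ± 3.71 to 95.6 ± 1.95) fell and the glucose transporter SLC2A3 rose from 1.01 ± 0.11 to 1.89 ± 0.09, of 24 genes with a median of -0.14. With 12 libraries 1 was higher and 4 lower, LDHA (-0.44 ± 0.07) among them. Among 29 genes of AMPK and mTORC1 control TXNIP, an arrestin that limits glucose uptake, had 63.7, 63.3 and 71.9 CPM in DMSO and 114.7, 110.3 and 101 in CS and rose by 0.71 ± 0.08 (adjusted p = 0.0124 by edgeR). It is also the 1 call among 18 FOXO factors and targets. ARRDC4, its paralog, was higher with 12 libraries (0.47 ± 0.12). The genes of the kinase itself gave no call with 6, and RNA does not report its activity. SLC2A3 lost its call in each of the 6 fits without 1 library, PGK1 and PGAM1 in all but that without DMSO replicate 1, and TXNIP without CS replicate 1, CS replicate 2 or DMSO replicate 2.

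Pathways named in the pharmacology of salicylate gave few or no calls. With 6 libraries 0.897% of all genes rose and 0.508% fell, and with 12 libraries 3.76% were higher and 5.13% lower. An unadjusted p below 0.05 was found for 17.2% of all genes (edgeR, 6 libraries). A lack of calls with 6 libraries in lists of this size therefore does not set these pathways apart from other genes. Of 29 NF-kappaB subunits and targets none was called in either fit (edgeR; 5 at an unadjusted p below 0.05, 0 by DESeq2, 2 higher and 3 lower with the GC correction), with 19 intervals within 1.5-fold and 25 within 2-fold, and NFKBIA was at 23.6, 21.6 and 19.4 CPM in DMSO and 19.7, 21.1 and 21.0 in CS, overlapping values. PTGS2 (COX-2) had no read in any of the 6 libraries. PTGS1 (COX-1) was at 8.81 ± 0.62 and 9.90 ± 1.68 CPM (0.17 ± 0.14). Of 11 tested prostaglandin and leukotriene genes none was called with 6 (2 at an unadjusted p below 0.05, 1 by DESeq2), and PTGES3 was lower with 12 (-0.42 ± 0.07). Only 3 of 14 genes of salicylate conjugation and transport were tested, and ACSM3, a medium-chain acyl-CoA synthetase, was higher with 12 (0.23 ± 0.06). Of 21 choline and phosphatidylcholine genes none was called with 6 (2 at an unadjusted p below 0.05, 0 by DESeq2). CHKA, the kinase that traps choline, had 72.8, 75.4 and 73.2 CPM in DMSO and 62.8, 62.6 and 62.7 in CS, which do not overlap, and was lower with 12 (-0.27 ± 0.05, adjusted p = 0.00508 by edgeR), while CHDH was higher (0.69 ± 0.15). None of 27 cholesterol and 13 fatty acid synthesis genes was called in either fit (1 and 0 at an unadjusted p below 0.05, 0 by DESeq2, and 9 cholesterol genes higher with the GC correction), with all 27 intervals of the former within 2-fold. None of 24 NRF2 targets was called with 6 (4 at an unadjusted p below 0.05, 0 by DESeq2), and HMOX1 was at 1.07 ± 0.41 and 0.57 ± 0.08 CPM.

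Genes of cell death and of early signalling added a few single calls. BCL2, the survival gene, had 92.1, 102 and 104 CPM in DMSO and 161, 155 and 150 in CS, and rose by 0.65 ± 0.07 (adjusted p = 0.0115 by edgeR). HRK, a killer of the same family, rose as well (10.7 ± 0.86 to 16.8 ± 0.71 CPM), so 2 of 14 family members rose and none fell; MCL1 was at -0.05 ± 0.09. Of 23 p53 targets C12orf5 (TIGAR) fell (-0.36 ± 0.06), MDM2 was at 83.7 ± 8.35 and 81.7 ± 3.68 CPM, and TP53INP1 was higher with 12. Of 25 immediate-early and MAPK feedback genes DUSP5 was the 1 call, EGR1 was lower with 12 (-0.61 ± 0.14) and EGR3 higher (0.84 ± 0.22). None of 33 autophagy and lysosome genes, 24 acetyltransferases and deacetylases and 15 genes of translation control was called with 6 (10, 3 and 4 at an unadjusted p below 0.05, and 1, 0 and 0 by DESeq2). BCL2 lost its call without CS replicate 1, CS replicate 2 or DMSO replicate 2, HRK without DMSO replicate 2 or any single CS library, and C12orf5 also without DMSO replicate 3.

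Many of the genes called with CS alone also moved when CS was added to KPT-330. Of the 159 that rose, 108 (67.9%) were higher there too, 23 (14.5%) were lower and 28 were not called. Of the 90 that fell 88 were tested there, of which 66 (75.0%) were lower too, 13 (14.8%) higher and 9 not called. These shares stand beside a background in which 24.2% of genes were higher and 22.6% lower, and the 174 genes called in the same direction are a small share of the 8857 calls of that comparison. Of 22 mitochondrial tRNAs 4 had a called difference between the effects with and without KPT-330, and the median was -0.14 with CS alone and -0.34 with CS added to KPT-330. Of the 4 shown above, MT-TF was -2.62 ± 0.15 with CS alone and -2.13 ± 0.13 with CS added to KPT-330, MT-TD -2.17 ± 0.18 and -1.84 ± 0.11, MT-TR 1.86 ± 0.18 and 2.17 ± 0.09, and MT-TI 1.15 ± 0.11 and 1.03 ± 0.05, and none of the 4 differences was called (log2 differences of 0.51, 0.35, 0.33 and -0.09). Of the replication-dependent histones 5 were higher and 22 lower of 41 when CS was added to KPT-330, and 14 had a called difference; HIST1H2BC was -1.56 ± 0.12 and -1.56 ± 0.10. Of the ATF4 genes 18 were higher and 4 lower of 35 there, and 10 had a called difference; ASNS was 0.86 ± 0.08 and 0.92 ± 0.05. BCL2 was 0.65 ± 0.07 and 0.63 ± 0.04. CD22 and FAIM3 went opposite ways: CD22 was 1.19 ± 0.10 and -0.23 ± 0.06 and FAIM3 0.96 ± 0.07 and -1.17 ± 0.05, with a called difference for both (adjusted p = 3.29e-06 and 2.29e-08 by edgeR). DUSP5 was -1.58 ± 0.11 alone and -0.42 ± 0.12 with KPT-330, and HSPA5 -0.50 ± 0.07 and 0.21 ± 0.05.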

How the data were processed

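The authors deposited gene counts, whole numbers for 64253 genes of Ensembl version 78. Per the series' design text, reads were aligned to hg38 with STAR in a modified MAP-RSeq workflow; how genes were counted, and with which strand setting, is not given in the sources used here. Per the labels' protocols, RNA came from an extraction kit for fixed tissue and a poly(A) library kit that does not mark strand, so overlapping genes cannot be told apart. Of the identifiers 99.92% of 56105 shared with GENCODE 44 overlapped in position.

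The test was that of edgeR 4.0.16 (R 4.3.3) on the counts (filterByExpr by group, TMM scaling, robust quasi-likelihood F-test, two-sided, Benjamini-Hochberg over all tested genes, call at an adjusted p of 0.05 or less). One fit used the 6 DMSO and CS libraries (4 residual degrees of freedom), a second all 12 (8), and KPT-330 with CS was compared with KPT-330 in its own 6. CPM used TMM-scaled library sizes, and SE is the absolute log2 fold change over the root of F. Principal components used log2 CPM with a prior count of 2. GC correction was a lowess (span 0.3) per library, set against the mean trend of its group. The form over all libraries set it against the mean of all libraries.

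The genes, 50 lists and tests were chosen with earlier results of these data known. Per direction the naming rule took the 12 genes with the largest change among those called, whose groups did not overlap and whose higher mean was 5 CPM or more (clone-based names, names of long intergenic, micro, nucleolar and other small nuclear or cytoplasmic RNAs, histones and antigen receptor segments were passed over, mitochondrial tRNAs were not); from each list up to 4 called members, 3 called with 12 libraries only and 2 of the highest uncalled; and a fixed set including XPO1, CCND1 and PTGS2. The alternatives were other filters, scalings and tests (DESeq2 1.42.0, limma voom 3.58.1), GC correction, a replicate block and each library left out. Only the fit of 6 libraries was tried on simulated counts, with a common spread for all genes and no GC trend between libraries.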

Additional observations from a re-analysis of the deposited data

Results flagged for a closer look

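The effect of CS was compared between cells with and without KPT-330, as the difference of the 2 log2 fold changes in the fit of 12 libraries. The 66 genes compared were all MHC class II genes and genes called with 6 libraries that the naming rule took by size of change. The difference was past an adjusted p of 0.05 (edgeR interaction term, Benjamini-Hochberg over all genes) for 39 of them. Over all 19460 genes 14.7% had such a call. The called genes were chosen by their CS effect in libraries that also enter the difference. A share above 14.7%, and effects that are smaller with KPT-330, can therefore come from that choice. In 7 the effect was larger with KPT-330, in 9 smaller with the same sign, and in 23 of opposite sign. Among the 23, the effect with KPT-330 was not called for HLA-DMA (-0.02), BASP1 (-0.03), ID2 (0.03), HSP90B1 (0.05), HLA-DOB (-0.12) and IFI44L (0.28). For these a reversal is not shown. Values below are the effect with KPT-330 minus the effect without it. Groups of 3 are too small for the rule on single outlying samples, so none was screened that way.

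All 13 genes of MHC class II were among them, each with a lower effect under KPT-330: CD74 -0.79, CIITA -0.67, HLA-DMA -0.47, HLA-DMB -0.56, HLA-DOA -0.42, HLA-DOB -0.78, HLA-DPA1 -0.47, HLA-DPB1 -0.66, HLA-DQA1 -0.62, HLA-DQB1 -1.23, HLA-DRA -0.41, HLA-DRB1 -0.85 and HLA-DRB5 -0.83. Reads of HLA-DRB1 and HLA-DRB5 may be split between these near-identical genes. The B cell surface genes CD22 (-1.40) and FAIM3 (-2.11) had a lower effect too.

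The difference was -2.28 for BBOX1, -1.68 for CD36, -0.65 for CPT1A and -0.71 for ABCA9. Over the list of fatty acid uptake and oxidation 8 members had a called difference, and the median of 39 was -0.07 with CS alone and -0.05 with CS added to KPT-330. In signalling and transcription the values were -0.63 for GNG7, -0.77 for FGR, -0.80 for SYNPO, -1.11 for BASP1, -0.67 for ARRDC3, -0.65 for ATF5 and -0.33 for AARS. ZNF441 (-0.78), GVINP1 (-0.84), SNX29P2 (-2.23), CDC25A (-0.49) and H1F0 (-0.39) completed the negative values. Positive differences were found for DUSP5 (1.19), MAP1A (1.24), SORT1 (1.14), IFI44L (1.06), SAMD9 (0.65), ID2 (0.54) and the chaperones HSPA5 (0.74) and HSP90B1 (0.62). With the GC correction 6918 genes had a called difference, against 2853 without it.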

How the results depend on the processing

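Genes higher and lower with 6 libraries numbered 159 and 90, and other choices gave 319 and 205 (no filter), 260 and 106 (library size alone), 240 and 168 (DESeq2), 491 and 329 (likelihood ratio test), 3214 and 2451 (limma voom with quality weights), 1727 and 1704 (GC correction within groups), 1333 and 2248 (GC correction over all libraries) and 731 and 998 (all 12 libraries). With 1 library left out they ran from 1 to 189 and from 3 to 180. With 12 libraries they were 731 and 998, then 1365 higher with library size alone, 1905 and 2691 with the GC correction, and 358 to 876 and 360 to 1792 with 1 library left out, lowest without CS replicate 2 and CS replicate 3. The difference with KPT-330 was called for 6918 genes with the GC correction against 2853.

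A replicate block gave 0 and 0 with 6 libraries (1346 genes, 7.6%, at an unadjusted p below 0.05; edgeR), 615 and 661 together with the GC correction, and 477 and 559 with 12. Same-numbered DMSO and CS libraries had correlations of their deviations across genes of r = -0.48, 0.00696 and -0.502, so the numbers were not taken to pair samples. DMSO replicate 1 with CS replicate 3 (0.52) and DMSO replicate 3 with CS replicate 1 (0.465) had the highest values; these pairs also share the sign of their GC slopes, and no correlation was computed after the GC correction. Of 59 named called genes none reversed under any of these choices; 59 kept their call with 12 libraries, 58 with the GC correction, 5 without DMSO replicate 2 and 3 without CS replicate 2. Of 197 named uncalled genes 95 were called with 12 libraries and 131 with the GC correction. Depth limits genes with few reads, such as CHAC1 and MT-TS2.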

Other observations

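Single genes known from the circadian clock were called. They stood in no list and are named after their values were seen, so they say nothing of the clock genes as a group; CLOCK, CRY1, CRY2, PER1 and NR1D1 were called in neither fit. ARNTL (BMAL1), the activator at the centre of the clock, had 25.9, 26.5 and 28.98 CPM in DMSO and 18.45, 19.7 and 16.7 in CS, and fell by 0.57 ± 0.09 on the log2 scale (adjusted p = 0.0390 by edgeR). The repressor genes NR1D2 (23.4 ± 2.89 to 41.2 ± 3.72 CPM) and PER3 (1.08 ± 0.13 to 2.01 ± 0.12) and CIPC, an inhibitor of CLOCK (66.7 ± 2.76 to 87.2 ± 1.67), rose. When CS was added to KPT-330 these 4 had values of -1.18, 0.88, 1.11 and 0.78. PER2 (0.47 ± 0.08) and BHLHE41 (-0.46 ± 0.08) were called with 12 libraries alone, and PER2 was lower with KPT-330 present (-0.35 ± 0.08).

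A stretch of chromosome 19 from 11767000 to 12633840 (hg38), bounded by the outermost called genes and so chosen after its values were seen, held 21 tested ZNF genes. Of these 20 had a positive log2 fold change, with a median of 0.21, and ZNF441, ZNF844 (0.65 ± 0.11) and ZNF791 (0.51 ± 0.08) rose. Of the other 386 ZNF genes 281 were positive, with a median of 0.09, and 1 rose. These genes have similar sequences, and how reads shared between them were counted is not given.

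Several genes at low levels had large changes and are named after their values were seen. The chemokine scavenger ACKR4 rose from 0.359 ± 0.07 to 1.60 ± 0.18 CPM and the antisense gene STARD4-AS1 from 1.06 ± 0.05 to 3.35 ± 0.32, while APOBEC2 fell from 4.69 ± 1.02 to 1.24 ± 0.28. RGS1, a brake on G protein signalling, was lower with CS alone (-1.31 ± 0.16) and higher when CS was added to KPT-330 (1.95 ± 0.13). KLRK1, which encodes NKG2D and overlaps KLRC4-KLRK1, rose by 0.64 ± 0.09, and was lower with KPT-330 present (-0.81 ± 0.06).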
